A study of Homo sapiens with 2 samples.

Results

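The expression of 10 genes used as markers of stem cells or as pluripotency factors was followed in CWR22rv1 cells, a human prostate cancer line that expresses the androgen receptor. They were taken by symbol from the deposited gene table, which held all 10 of them among 19607 genes. The rule is the symbol alone, but the set was put together with earlier results of these data known. The control was 1 library of CWR22rv1 cells labelled wild type, and the Akt1/2 DKO library came from cells of the same line in which Akt1 and Akt2, the kinases at the centre of the PI3K pathway, had been knocked out with CRISPR/Cas9. Knockout cells had been selected with puromycin and isolated as single clones, and the labels do not name the clone that was sequenced. With 1 library per condition, no difference has a replicate check, and the effect of the knockout and the difference between a clone and the control cells cannot be told apart. No agent, time or dose is given in the labels for either library.

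Stem cell markers fall into classes that work in different ways. CD44 and PROM1 (CD133) are cell surface proteins used to sort cells with stem-like growth from tumours. ALDH1A1 and ALDH1A3 are cytosolic aldehyde dehydrogenases that oxidize retinal to retinoic acid and underlie the enzymatic assay for ALDH-positive stem cells. POU5F1 (OCT4), SOX2 and NANOG form the core transcription network of embryonic stem cells, and KLF4 joins POU5F1 and SOX2 among the reprogramming factors. SOX9 is a transcription factor of progenitor cells in the developing prostate and other epithelia, and BMI1 is a Polycomb protein that keeps stem cells dividing by holding the CDKN2A locus silent.

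The promoters of the 3 genes with the largest differences are shown because those differences lead the results. Each is the 250 bases before the RefSeq start site (GRCh38.p14), written along the strand of the gene, and capitals mark matches to any of 8 short motifs searched on both strands. The ALDH1A1 window is chr9:72953054-72953303 on the minus strand, the CD44 window is chr11:35138921-35139170 on the plus strand, and the KLF4 window is chr9:107489770-107490019 on the minus strand.
ALDH1A1: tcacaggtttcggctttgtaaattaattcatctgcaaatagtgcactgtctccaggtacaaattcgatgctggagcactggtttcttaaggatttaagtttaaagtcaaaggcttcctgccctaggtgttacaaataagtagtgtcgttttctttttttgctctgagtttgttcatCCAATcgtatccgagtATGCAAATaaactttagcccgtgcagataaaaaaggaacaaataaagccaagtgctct
CD44: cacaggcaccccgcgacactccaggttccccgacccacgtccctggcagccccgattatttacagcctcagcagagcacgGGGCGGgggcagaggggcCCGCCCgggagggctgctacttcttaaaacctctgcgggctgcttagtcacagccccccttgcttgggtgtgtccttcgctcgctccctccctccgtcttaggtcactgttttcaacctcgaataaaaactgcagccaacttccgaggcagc
KLF4: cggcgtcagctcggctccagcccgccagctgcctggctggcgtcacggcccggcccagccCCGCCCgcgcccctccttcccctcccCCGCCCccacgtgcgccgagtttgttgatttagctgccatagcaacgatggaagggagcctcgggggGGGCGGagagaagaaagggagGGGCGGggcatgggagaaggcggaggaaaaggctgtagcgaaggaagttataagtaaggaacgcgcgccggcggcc

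The KLF4 promoter held 4 GC boxes, the motif GGGCGG bound by SP and KLF proteins, at 97 and 76 bases before the start site on the strand of the gene and at 190 and 164 bases before it on the other strand. CD44 held 2 GC boxes, 170 and 152 bases before its start. ALDH1A1 held no GC box. Its capitals are a CCAAT box 74 bases before the start and the octamer ATGCAAAT, the motif of POU factors, 58 bases before it. Of 34943 promoter windows of 300 bases, which add the 50 bases from the start on, 44.9% held a GC box, 34.6% a CCAAT box and 1.77% the octamer. The motif of FOXO factors, GTAAACA, was in 3.42% of all windows and in 0 of the 12 windows listed for 8 of the 10 genes. The other motifs were the androgen receptor half-site AGAACA (14.8% of all windows), the CACCC box CCACCC (34.3%), the AP-1 site TGANTCA (7.72%) and the TATA box TATAAA (11.6%). The GC content of the ALDH1A1 window was 40.3%, against 63.3% for CD44, 69.0% for KLF4 and a median of 58.7% over all windows. A match describes the letters only. All 3 windows lie inside the gene as GENCODE draws it, since other annotated transcripts start further upstream.

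The libraries held 9970820 reads (control) and 10718650 reads (Akt1/2 DKO). The reads of AKT1 went from 2645 to 591 and those of AKT2 from 2362 to 667, in the direction of the labels. Of 9 luminal prostate markers, all had reads in both libraries, with a summed level of 905 FPKM in control and 1490 FPKM in Akt1/2 DKO. However, 4 of them were more than 1.5-fold lower and 3 higher (together 77.8%, against 30.9% of all genes with at least 10 reads). The 4 basal epithelial markers held 15 and 0 reads, with KRT5 and TP63 at 0 in both. The 6 fibroblast markers summed to 1035 and 237 reads, of which vimentin, which some tumour cells also make, gave 897 and 84. Of the 4 fibroblast markers with at least 10 reads, 2 were at least 1.5-fold higher and 2 lower (100%, against 30.9% of all genes). COL1A1 was 1.74-fold higher and COL3A1 9.12-fold lower. The 3 endothelial markers held 1 and 2 reads, with CDH5 at 0 in both, and the 3 blood cell markers 51 and 69, nearly all of CD68, with CD3E at 0 in both. The 4 neuroendocrine markers summed to 1092 and 1000 reads, with 2 of them at 0 in both, and CHGA went from 340 to 2 reads. SYP, the other neuroendocrine marker with at least 10 reads, was not past 1.5-fold (1 of 2 past it, against 30.9% of all genes). The part of these markers in the results below was not tested.

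CD44 and KLF4 were the genes with the largest increase in Akt1/2 DKO cells, and ALDH1A1 was nearly lost. SOX9 was 1.75-fold higher, BMI1 stayed just under the 1.5-fold limit, ALDH1A3 and POU5F1 were low in both libraries, and PROM1, SOX2 and NANOG had at most 1 read. A gene was called higher or lower when its normalized reads differed by at least 1.5-fold, and genes with under 10 reads over both libraries were left out. Of the 10 genes, 7 had that many reads and 5 of the 7 were called (71.4%), against 30.9% of all 13318 genes with enough reads. The called genes were 4 higher, where the share among all genes was 15.9%, and 1 lower, where it was 15.0%. In 4 of the 7 the gene was called and its 95% exact counting interval also excluded no change, against 27.0% of all genes. Over called genes alone this held for 4 of 5, and for 3600 of 4117 among all genes. The median log2 fold change over the 7 genes was 0.81, and over all genes 0.01. In such bulk libraries a change in RNA per cell and a change in the share of cells that make it cannot be told apart.

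**Figure D1:**
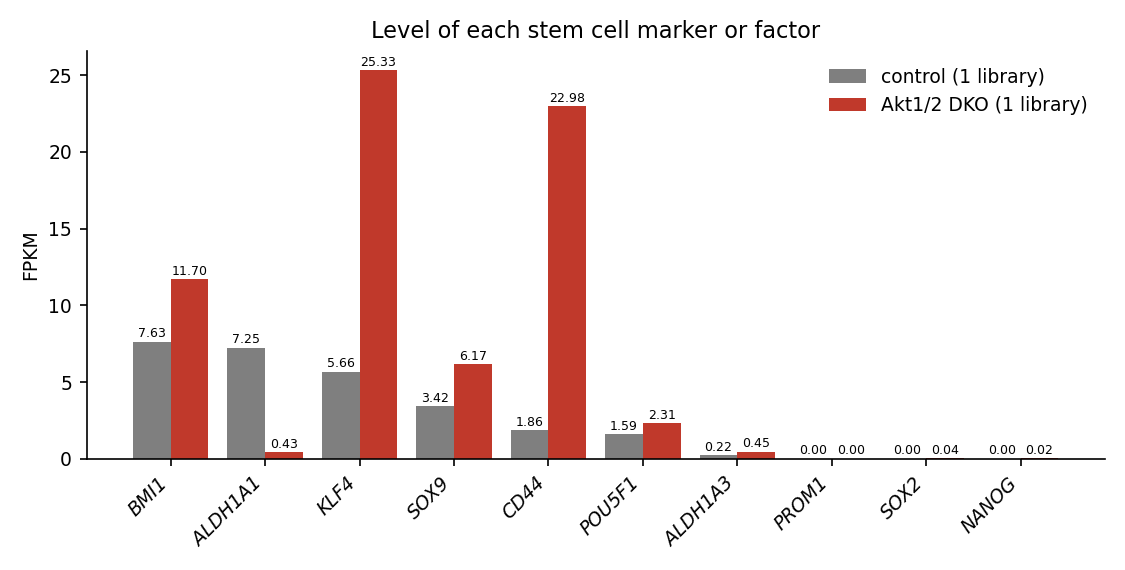
Level of each gene in FPKM, a count of fragments divided by transcript length and depth, in the control library (grey bars) and the Akt1/2 DKO library (red bars), 1 library each, so there are no error bars. KLF4 and CD44 have the tallest red bars, 25.33 and 22.98 FPKM, ALDH1A1 goes from 7.25 to 0.43 FPKM, and PROM1, SOX2 and NANOG lie at or next to 0.

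The order of the genes by level per transcript length therefore differed between the libraries. In control cells BMI1 came first with 7.63 FPKM, followed by ALDH1A1 with 7.25, KLF4 with 5.66, SOX9 with 3.42, CD44 with 1.86, POU5F1 with 1.59 and ALDH1A3 with 0.22. In Akt1/2 DKO cells KLF4 came first with 25.33 FPKM, followed by CD44 with 22.98, BMI1 with 11.70, SOX9 with 6.17, POU5F1 with 2.31, ALDH1A3 with 0.45 and ALDH1A1 with 0.43. Without replicates it cannot be said which neighbours in these orders differ. Among the genes with any read in the same library, CD44 moved from the percentile 26.8 to 72.8 and KLF4 from 41.4 to 74.9, while ALDH1A1 moved from 46.1 to 15.6. KLF4 and CD44 made up 36.5% and 33.1% of the summed FPKM of the 10 genes in Akt1/2 DKO cells, and 20.5% and 6.73% in control cells. ALDH1A1 made up 26.2% of that sum in control cells and 0.619% in Akt1/2 DKO cells. For CD44 the FPKM rose less than the normalized reads, 12.4-fold against 23.3-fold, so its places and shares here hold for FPKM only.

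**Figure D2:**
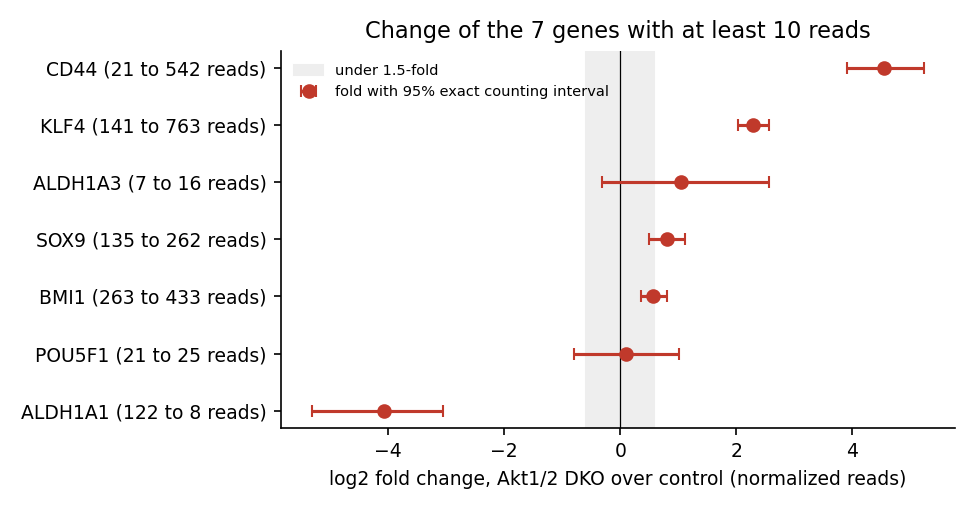
Log2 fold change of normalized reads, Akt1/2 DKO over control, for the 7 genes with 10 or more reads over both libraries, where bars are 95% exact intervals for counting error only and the grey band is a change under 1.5-fold. CD44, at 4.54, and KLF4, at 2.29, lie far to the right, ALDH1A1, at -4.08, far to the left, and the bars of ALDH1A3 and POU5F1 cross 0.

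Among the surface markers, CD44 (ENSG00000026508, chromosome 11 from 35138870 to 35232402) was read 21 times in control and 542 times in Akt1/2 DKO. CD44 is the receptor for hyaluronan, a sugar polymer of the extracellular matrix. This was a 23.3-fold increase in normalized reads (95% counting interval 15.1 to 37.9). In FPKM the increase was 12.4-fold, from 1.86 to 22.98, and the number of reads behind 1 FPKM of CD44 differed between the libraries. After division by the median gene this number, which scales with the transcript length used in the FPKM, was 1.94-fold larger for CD44 in Akt1/2 DKO, where the central 90% of 11241 genes with at least 20 reads in each library lay between 0.866 and 1.19. Among the 917 of these genes with under 50 reads in a library, CD44 lay at the percentile 99.1. GENCODE release 29 lists 26 coding CD44 transcripts of 352 to 5732 bases, and CD44 is known for alternative splicing of its variant exons. The table holds values per gene, so isoforms were not analysed here. The gene also overlaps the antisense gene CD44-AS1, and the labels do not state whether the reads carried strand.

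**Figure D3:**
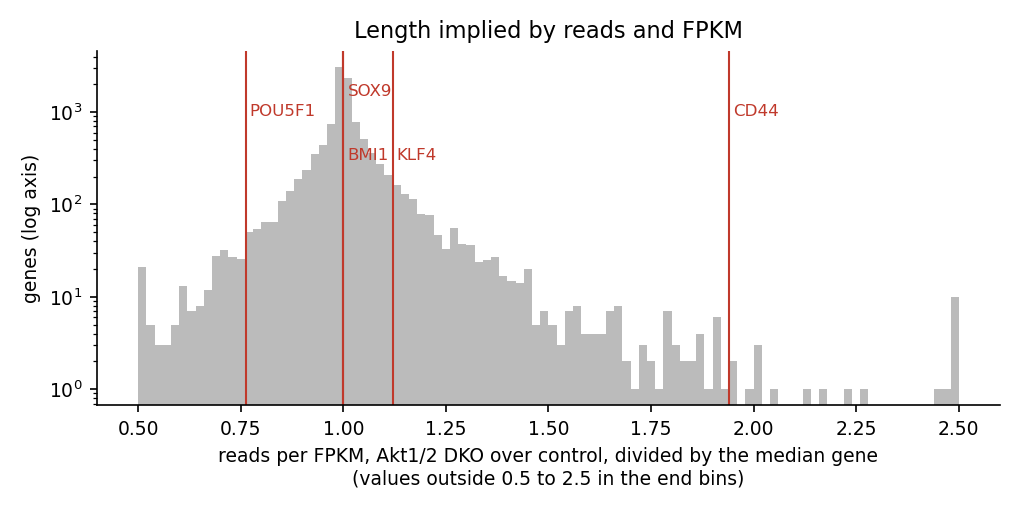
Number of genes (log axis) by the ratio, Akt1/2 DKO over control, of reads per FPKM, divided by that of the median gene, for 11241 genes with at least 20 reads and 0.5 FPKM in each library. CD44 stands at 1.94, near the right end, POU5F1 at 0.762, and SOX9 and BMI1 at the centre.

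PROM1, the pentaspan membrane protein CD133 (ENSG00000007062, chromosome 4 from 15963076 to 16084378), had 0 reads in both libraries. A count of 0 allows up to 3 reads, or 0.301 CPM (reads scaled to library size) in control and 0.280 CPM in Akt1/2 DKO, so PROM1 RNA was below detection. PROM2, its paralog, was read 1612 and 1195 times, a ratio of 0.669 that lay just inside the 1.5-fold limit.

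The partners of CD44 were examined as a list of 18 symbols for hyaluronan synthesis, hyaluronan breakdown and the proteins that tie CD44 to the cytoskeleton, of which 17 were in the table. Leaving CD44 out, 12 had at least 10 reads, 3 were higher and 2 lower (41.7%, against 30.9% of all genes), and the median log2 fold change was 0.06. HAS2, a hyaluronan synthase, went from 1 read in control to 72 in Akt1/2 DKO, a ratio as counted of 64.9 with a counting interval from 11.3 to 2600, or 21.6 with the control raised to 3 reads as plotted. CEMIP, which degrades hyaluronan, was 1.89-fold higher, from 89 to 186 reads, but 1.12-fold higher in FPKM. HAS3, another synthase, was 2.03-fold lower, from 64 to 35 reads, and HYAL2, a hyaluronidase, was 2.40-fold lower, from 1160 to 536. The linkers ezrin, radixin and moesin and the tumour suppressor NF2 were not past 1.5-fold. Among 5 regulators of CD44 splicing, 1 was past 1.5-fold (1 of 5, a lower share than the 30.9% of all genes). This was ESRP2, which promotes epithelial splice forms, at 1.53-fold higher with an interval from 1.41 to 1.67.

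Among the aldehyde dehydrogenases, ALDH1A1 (ENSG00000165092, chromosome 9 from 72900662 to 73080442) had 122 reads in control and 8 in Akt1/2 DKO. It was 16.9-fold lower, with an interval from 8.31 to 40.0, and was listed at 7.25 and 0.43 FPKM. ALDH1A3 (ENSG00000184254, chromosome 15 from 100877714 to 100916626) had 7 and 16 reads. Its 2.06-fold higher value passed 1.5-fold, but the interval from 0.802 to 5.93 included no change, so 7 and 16 reads were too few to show a difference. The study chose ALDH1A3 for a PCR assay with these samples known, so its direction here is not independent evidence. Both enzymes were thus low in Akt1/2 DKO cells, at 0.43 and 0.45 FPKM, and the third member of the subfamily, ALDH1A2, had 0 reads in both libraries.

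ALDH1A3 is on the study's list of PCR primers with the pair shown here, which tell what part of the transcript that assay reads. Capitals mark the whole primer, written 5′ to 3′.
ALDH1A3 forward primer: AAGAGGAGATTTTCGGGCCA
ALDH1A3 reverse primer: GCAGTTGATCCAGACCGTTC

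In the longest coding ALDH1A3 transcript that holds both primers in GENCODE release 29 (GRCh38, 3924 bases, 13 exons), the forward primer crosses the junction of exons 10 and 11, from position 100905680 to 100907132 on chromosome 15. The reverse primer crosses the junction of exons 11 and 12, from 100907269 to 100908417. The product is 176 bases long in cDNA, and 2 transcripts held both primers, which matched no other annotated gene.

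The whole family of 19 aldehyde dehydrogenases had 17 with at least 10 reads. Without ALDH1A1 and ALDH1A3, 1 of 15 was higher, 6 were lower (together 46.7%, against 30.9% of all genes) and 8 were not past 1.5-fold, and the median log2 fold change was -0.22. ALDH5A1, which oxidizes succinic semialdehyde, was 2.05-fold lower with 747 and 404 reads. ALDH4A1, of proline breakdown, was 1.84-fold lower with 782 and 472 reads, and ALDH3B1 was 2.65-fold higher with 62 and 182 reads. By FPKM, ALDH1A1 ranked at place 11 of the family in control and 15 in Akt1/2 DKO, and its share of the family's summed FPKM was 1.18% and 0.0855%.

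Of 23 genes that carry, make, degrade or sense retinoids, the products and substrates of the ALDH1A enzymes, 14 had at least 10 reads, 2 were higher and 5 lower (7 of 14, against 30.9% of all genes), with a median log2 fold change of -0.34. DHRS3, which reduces retinal back to retinol, was 12.3-fold lower (interval 8.15 to 19.3), with 277 reads in control and 25 in Akt1/2 DKO. RXRA, a retinoid receptor, was 1.90-fold lower with 242 and 141 reads, and CRABP1, a retinoic acid binding protein, was 1.89-fold lower with 75 and 44. RARB, a retinoic acid receptor, was 1.67-fold higher with 26 and 48 reads, and its interval reached down to 1.01.

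**Figure D4:**
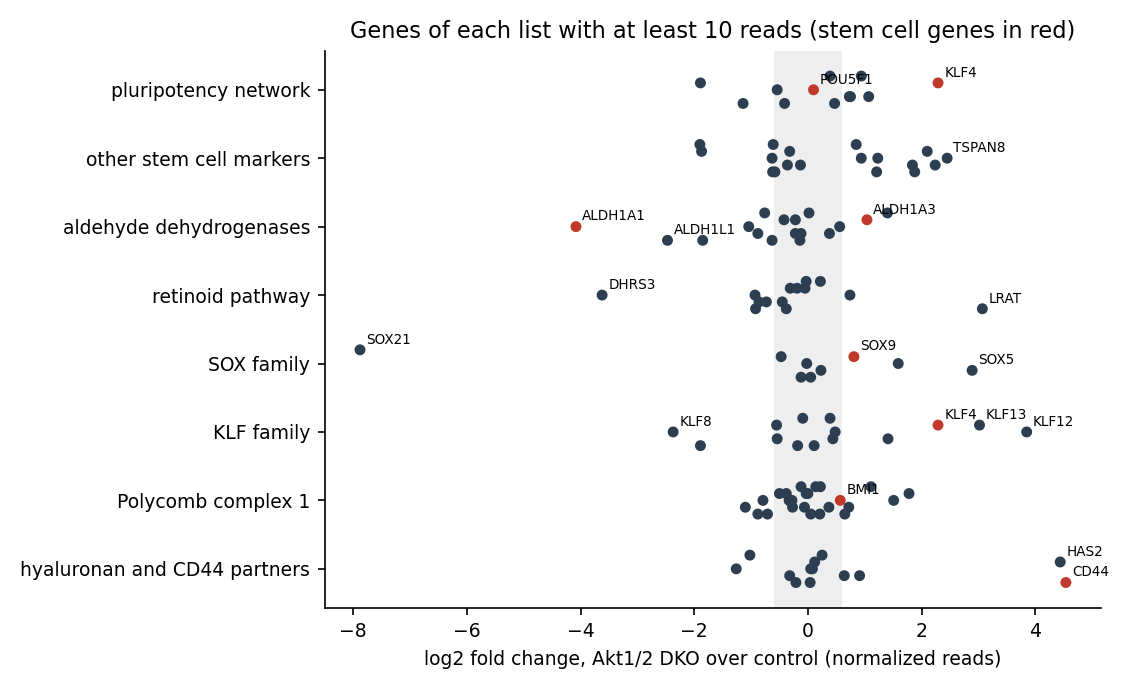
Log2 fold change of normalized reads, Akt1/2 DKO over control, for the genes of 8 lists with 10 or more reads over both libraries, 1 point per gene, with the stem cell genes of this report in red and a grey band for changes under 1.5-fold. Libraries below 3 reads were raised to 3, which limits points such as HAS2. CD44 is the rightmost point of its list and ALDH1A1 the leftmost, KLF4 is the rightmost of the pluripotency network and lies behind KLF12 and KLF13 in its family, and SOX21 lies alone at -7.88.

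Among the pluripotency factors, KLF4 (ENSG00000136826, chromosome 9 from 107484852 to 107490482) was read 141 times in control and 763 times in Akt1/2 DKO. KLF4 is a zinc finger factor that also drives epithelial differentiation. It was 4.88-fold higher, with an interval from 4.07 to 5.88. POU5F1 (ENSG00000204531, chromosome 6 from 31164337 to 31180731) had 21 and 25 reads, a ratio of 1.07 with an interval from 0.577 to 2.02 that leaves room for a change in either direction. In FPKM the ratio was 1.45, with 0.762 times as many reads per FPKM as in control after division by the median gene. The gene overlaps TCF19, on the other strand, and PSORS1C3. Its copy POU5F1B, which can share reads, had 1 and 0.

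SOX2 (ENSG00000181449, chromosome 3 from 181711924 to 181714436) and NANOG (ENSG00000111704, chromosome 12 from 7787794 to 7799141) each had 0 reads in control and 1 in Akt1/2 DKO. Both libraries were under the floor of 3 reads, so no fold is given. SOX2 lies within the long noncoding gene SOX2-OT, which was not analysed here. The NANOG copy NANOGP8 had 1 and 0 reads, and NANOGNB had 0 in both.

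Of the wider pluripotency network of 26 genes, 11 had 0 reads in both libraries and 12 had at least 10 reads. Leaving out the genes already described, 4 of 10 were higher and 2 lower (60.0%, against 30.9% of all genes), with a median log2 fold change of 0.43. TBX3, a T-box factor, was 1.91-fold higher with 2844 and 6030 reads, and TFCP2L1, a factor of naive stem cells, was 1.68-fold higher with 143 and 267. DNMT3B, a de novo DNA methyltransferase, was 2.21-fold lower with 257 and 129 reads. MYC, the other classical reprogramming factor, was 1.65-fold higher (interval 1.58 to 1.74), with 2556 and 4689 reads.

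In the KLF family of 17 genes, 14 had at least 10 reads. Without KLF4, 3 of 13 were higher and 2 lower (38.5%, near the 30.9% of all genes), and the median log2 fold change was 0.11. KLF13 was 8.13-fold higher with 112 and 1009 reads, KLF7 was 2.66-fold higher with 196 and 579, and KLF6 was 3.71-fold lower with 702 and 210. By FPKM, KLF4 ranked at place 8 of the family in control and 2 in Akt1/2 DKO, and its share of the family's summed FPKM was 5.16% and 16.9%.

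SOX9 (ENSG00000125398, chromosome 17 from 72121020 to 72126420) had 135 reads in control and 262 in Akt1/2 DKO. It was 1.75-fold higher, with an interval from 1.42 to 2.17, and was listed at 3.42 and 6.17 FPKM. SOX9-AS1 overlaps it on the other strand. Of the 17 SOX genes other than SOX2 and SOX9, 8 had at least 10 reads, 2 were higher and 1 was lower (37.5%, near the 30.9% of all genes), with a median log2 fold change of 0.02. The lower one was SOX21, a factor that counteracts SOX2 in progenitor cells, which went from 1483 reads to 7 and was 235-fold lower with an interval from 114 to 585. SOX21 was the SOX gene with the most FPKM in control, 53.17, and was listed at 0.23 FPKM in Akt1/2 DKO. The summed FPKM of the family went from 89.7 to 43.8, and the share of SOX9 in it from 3.81% to 14.1%.

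BMI1 (ENSG00000168283, chromosome 10 from 22321211 to 22331484) had 263 reads in control and 433 in Akt1/2 DKO. Its ratio was 1.49, with an interval from 1.27 to 1.74, just under the 1.5-fold limit. The call depended on scaling, since the ratio was 1.53 by total counts, 1.54 by upper quartile and 1.53 in FPKM. BMI1 shares its exons with the read-through gene COMMD3-BMI1, and the deposited reads of both were fractional, 262.72 and 432.96 for BMI1 and 62.49 and 65.03 for COMMD3-BMI1. With the reads of both genes added, 325 and 498, the ratio was 1.38 (interval 1.20 to 1.59). The neighbour COMMD3 had 365 and 455 reads, a ratio of 1.12 with an interval from 0.978 to 1.29.

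All 24 genes of Polycomb complex 1 had at least 10 reads. Without BMI1, 5 of 23 were higher and 4 lower, with a median log2 fold change of -0.03. This share, 39.1%, was near the 30.9% of all genes. The higher genes included chromobox subunits, which read the Polycomb mark on histone H3. CBX2 was 3.43-fold higher with 333 and 1266 reads, and CBX8 was 2.84-fold higher with 210 and 661. The corepressors BCORL1 and BCOR were 2.15-fold and 1.84-fold lower, with 1053 and 544 reads and with 3733 and 2249, and PHC2 was 1.73-fold lower with 886 and 567. CDKN2A, the classical BMI1 target, had 727 and 901 reads, a ratio of 1.12 (interval 1.01 to 1.23). Its neighbour CDKN2B had 23 and 42 reads and was called higher, but its interval from 0.968 to 2.87 included no change.

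Other markers used for stem or progenitor cells went both ways. Of 26, 18 had at least 10 reads, 9 were higher, 5 lower and 4 not past 1.5-fold, with a median log2 fold change of 0.36. The called share was 77.8%, against 30.9% of all genes. The 5 lower calls depended on scaling and were 3 by total counts, 2 by upper quartile and 6 by DESeq2 size factors or FPKM. The tetraspanin TSPAN8 was 5.48-fold higher with 79 and 480 reads. EPCAM, an epithelial adhesion protein, was 3.69-fold higher with 206 and 843, and ITGA2, the integrin alpha2 chain used to sort prostate basal cells, was 3.58-fold higher with 68 and 270. LGR4, a receptor for R-spondins, was 3.72-fold lower with 188 and 56 reads, NGFR was 3.67-fold lower with 43 and 13, and the RNA-binding protein MSI1 was 1.53-fold lower with 318 and 230. MSI1 lost its call by total counts, at 1.49-fold, and by upper quartile, at 1.48-fold. LGR6 and KIT had 0 reads in both libraries.

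**Figure D5:**
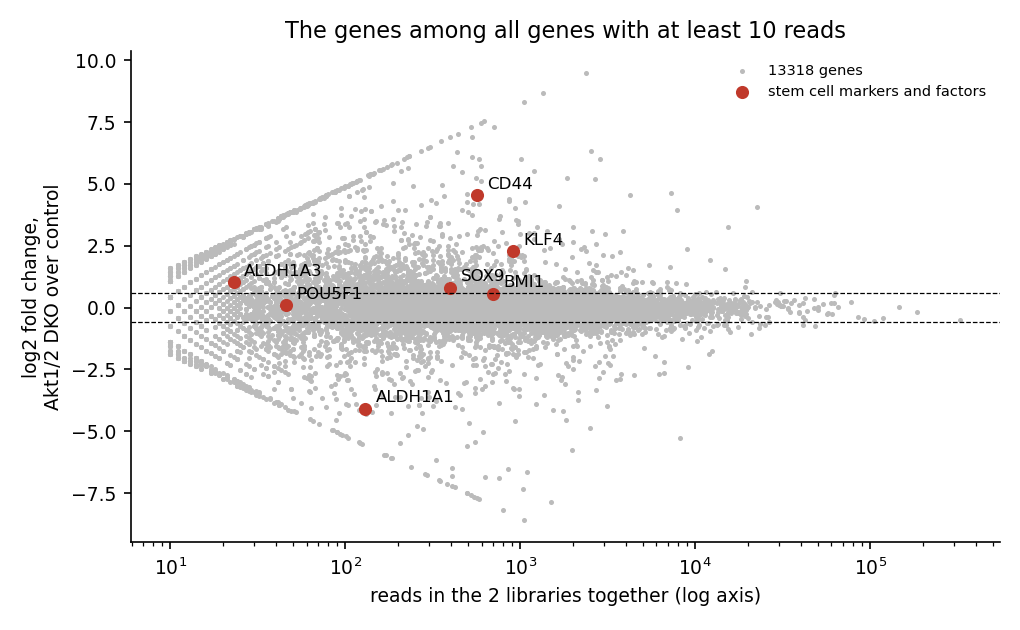
Log2 fold change of normalized reads, Akt1/2 DKO over control, against the reads in the 2 libraries together (log axis) for 13318 genes (grey) with the 7 stem cell genes in red, and dashed lines at 1.5-fold. CD44 and KLF4 lie above and ALDH1A1 below most genes of like depth, ALDH1A3 and POU5F1 lie where few reads spread the grey points, and the slanting rows of points are genes with a library set to 3 reads.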

How the data were processed

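The deposited values are estimated counts, which the authors left without normalization, and the authors' FPKM, for 1 library of each condition. Per the submitters' processing notes, fastp 0.20.0, TopHat, Cufflinks and edgeR were used with genome build GRCh38.p10, and no roles are given. Files with the authors' own fold changes, p-values, FDR, ontology counts and correlation were not used. Reads were rounded to whole numbers, and 2173 genes had fractional reads in a library. Scaling by TMM (edgeR 4.0.16, R 4.3.3), over genes with 10 or more reads in all, gave a library size ratio, Akt1/2 DKO to control, of 1.11. With 1 library per condition no test was run. Intervals are 95% exact (Clopper-Pearson, scipy 1.17.1, Python 3.11.15) conditional on the gene's total, and they cover counting error only, since the reads are not independent molecules. For a fold, libraries below 3 reads were raised to 3. A ratio against 1 read was taken as counted. The steps were tested on simulated data.

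The genes and the 11 gene lists were chosen with earlier results of these data known. From each list, up to 3 of the largest rises and 3 of the largest falls were named among genes with 50 or more reads in all whose interval excluded no change. Copies and overlapping genes in the table, AKT1 and AKT2 were also named. MYC, PROM2, ALDH1A2, CDKN2A and CDKN2B, the linkers of CD44, genes at 0 reads, and the comparison of reads per FPKM were added after their values were seen. A few genes that the rule names are not reported here. Gene positions are from GENCODE release 29 (GRCh38) and promoters from RefSeq (GRCh38.p14). The alternatives were total counts, DESeq2 1.42.0 size factors, upper-quartile factors, the authors' FPKM, 3 other read filters, 2 other thresholds and a prior count of 1.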

Additional observations from a re-analysis of the deposited data

How the results depend on the processing

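Of the 7 genes considered, 5 differed by at least 1.5-fold, and this count was 3 (3 higher, 0 lower) when at least 10 reads were required in each library, which leaves out ALDH1A1 and ALDH1A3. It was 6 by total counts, upper-quartile factors and FPKM, each of which brings BMI1 past the limit, and 4 or 5 under the other alternatives. The median log2 fold change lay between 0.80 and 0.86 under the alternatives run for it. It was taken over the 7 genes, or over 5 where at least 10 reads in each library or 50 reads in all were required. Each time it was the value of SOX9, so it shows how that gene depends on the processing. Total counts, DESeq2 size factors and upper-quartile factors shift all genes alike, with library size ratios of 1.07 to 1.11 beside the 1.11 of TMM. They could hardly move a gene out of a wide counting interval. Of 35 alternative fold changes of single genes, 34 stayed within the counting interval and 0 changed sign. The exception was CD44, with a log2 fold change of 3.63 when FPKM replaced normalized reads. For CD44 the cause was not tested. A 2-fold threshold left 2390 of all genes and 33 genes of the lists, against 4117 and 58, since it asks for a larger difference. Of 110 counts for separate lists, 10 moved by more than 1.5 times. The order by level has no alternative, since FPKM is the only unit per length. Depth limits ALDH1A3, POU5F1, PROM1, SOX2 and NANOG. No paired analysis was possible because there is 1 library per condition, and for the same reason no replicate could be left out.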

Other observations

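The pathway annotation in the deposited table lists 141 genes for the signalling that regulates pluripotency of stem cells. The genes with the largest differences in it, by the same rule with 5 in each direction and outside the lists above, are given here, and this look was added after the data were seen. Of the 110 annotated genes with at least 10 reads, 28 were higher and 22 lower (45.5%, against 30.9% of all genes). INHBA, the subunit of activin A, had 0 reads in control and 226 in Akt1/2 DKO, at least 67.9-fold higher against the floor of 3 reads. FZD5, a Wnt receptor, was 15.2-fold higher with 438 and 7386 reads (interval 13.8 to 16.8). OTX1, a homeobox factor, was 11.3-fold higher with 9 and 113 reads, the Wnt ligand WNT7B 7.76-fold higher with 25 and 215, and the receptor FZD4 7.16-fold higher with 30 and 238. Among the falls, IGF1R, the receptor for insulin-like growth factors, was 10.8-fold lower with 1935 and 199 reads, and the ligand BMP2 was 4.87-fold lower with 685 and 156. The targeted genes AKT1 and AKT2 were also among them.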
